A study of Mus musculus with 32 samples.

Results

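Kcnq1ot1 is a long noncoding RNA that runs antisense through the potassium channel gene Kcnq1 on mouse chromosome 7. Interactions were taken as members where the RNA tag was assigned to Kcnq1ot1 (ENSMUSG00000101609, mm10, chr7:143203458-143296549, minus strand) or to Kcnq1 (ENSMUSG00000009545, chr7:143106362-143427042, plus strand). They numbered 32310 for Kcnq1ot1 and 998 for Kcnq1, together 33308 of the 25231081 significant RNA–DNA interactions, and these are 2 of the 17784 RNA genes listed. The question was which genes of the imprinted domain each RNA contacted, at what distance, and how this differed between cell types and treatments.

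RADICL-seq joins RNA to nearby DNA in crosslinked nuclei with a bridge adapter, and a short tag of both is then sequenced. The 32 repository entries stand for 15 libraries in 6 groups. R08 mouse embryonic stem cells (mESC), a male line grown without feeder cells, gave mESC 1FA (1% formaldehyde, 3 libraries) and mESC 2FA (2% formaldehyde, 3 libraries). The same line gave mESC ActD4 (2 libraries), in which actinomycin D, an inhibitor of transcription elongation, was applied at 5 µg/ml for 4 h before fixation with 1% formaldehyde. Oli-neu cells, an immortalised mouse line used as oligodendrocyte progenitor cells (mOPC), gave mOPC 1FA (3 libraries). In the non-protein-mediated libraries, mESC NPM (2 libraries) and mOPC NPM (2 libraries), the 1% formaldehyde crosslinks were reversed with proteinase K before RNA ligation. The labels also hold resequencing entries for mESC NPM replicate 1, which was counted as 1 library. Replicates were cell batches of different passage number, and each cell type is 1 line. The maternal and paternal alleles were not separated, so every value sums over both.

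The Kcnq1ot1 promoter lies in an intron of Kcnq1 within an imprinting control region (IC2) that is methylated on the maternal chromosome. The RNA is therefore made from the paternal chromosome, where it is known for silencing neighbouring genes over long stretches of the chromosome in embryo and placenta. Genes that the domain is known for include Cdkn1c, an inhibitor of cyclin-dependent kinases, Phlda2, a placental growth regulator, Slc22a18, a membrane transporter, and Ascl2, a transcription factor of trophoblast. Kcnq1 itself encodes the pore of a voltage-gated potassium channel.

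The sequences that the contacts came from are shown first. The following windows of 27 bases (reference sequence, GRCm38.p6) are centred on the 3 most recurrent centres of Kcnq1ot1 RNA tags in the 1FA libraries and are written on the RNA's own minus strand. The capital marks the tag centre. The sites were picked after their values were seen, by the smaller of the shares in mESC 1FA and mOPC 1FA.

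RNA tag site 1 (chr7:143285016-143285042): gccagttaaacagTtttcacataaaag

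RNA tag site 2 (chr7:143247266-143247292): gtaaaacaatgccTtcaaaatgagggg

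RNA tag site 3 (chr7:143261352-143261378): actgtgacacatgGgtgatgggggtca

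Site 1 lies 11.5 kb, site 3 35.2 kb and site 2 49.3 kb downstream of the Kcnq1ot1 start, and none of the 3 tag centres was annotated as a repeat. Site 1 gave 45 interactions in mESC 1FA and 41 in mOPC 1FA. Site 2 gave 40 and 59, and site 3 gave 33 and 34. Within a library, lines that shared both tag positions were counted as 1 interaction. None of the 3 sites gave an interaction in either NPM group, but they were picked for their 1FA shares.

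Recurrent positions of DNA tags, not of RNA tags, were taken from the NPM libraries. These windows are centred on the 3 most recurrent DNA tag centres of Kcnq1ot1 there, on the plus strand of the same build, chosen by the smaller of the shares in mESC NPM and mOPC NPM.

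DNA tag site 1 (chr7:143236398-143236424): gtttttttgggtcTttcagagagcatt

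DNA tag site 2 (chr7:143272679-143272705): tataaatgtacaaGtcccagggatgct

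DNA tag site 3 (chr7:143275198-143275224): ttttacttatataTgcacattcaagtg

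All 3 windows lie inside the transcribed span of Kcnq1ot1, and therefore within the span of Kcnq1. As they were picked for their NPM shares, lower numbers in the other groups follow in part from the choice. DNA tag site 1 was listed 10 and 3 times in the mESC NPM libraries and 8 and 26 times in those of mOPC NPM, against 0 in each 1FA and 2FA group. In both NPM groups 1 library gave most of these. DNA tag site 2 was listed 3 and 10 times in mESC NPM and 9 and 17 times in mOPC NPM, against 2 in mESC 1FA and 3 in mOPC 1FA. DNA tag site 3 was listed 2 and 8 times in mESC NPM and 13 and 12 times in mOPC NPM, against 2 in mESC 1FA and 7 in mOPC 1FA.

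Kcnq1ot1 was among the best captured RNAs in every group except ActD4. It gave 4094, 3081 and 3355 interactions in the mESC 1FA libraries, where it ranked 53rd to 74th by number. The mESC 2FA libraries gave 2693, 2536 and 3009, and the mOPC 1FA libraries 3078, 3274 and 3315. The ActD4 libraries gave only 165 and 89, and the second of them ranked 533. The NPM libraries gave 367 and 552 in mESC and 1387 and 1315 in mOPC.

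Library size differed between the groups, so the numbers were also set per 1000000 listed interactions. On that scale Kcnq1ot1 was at 1327 ± 184 in mESC 1FA (SD, n = 3), 1214 ± 27.5 in mESC 2FA (n = 3), 374 ± 28.7 in mESC ActD4 (n = 2), 875 ± 43.8 in mESC NPM (n = 2), 1535 ± 134 in mOPC 1FA (n = 3) and 1097 ± 10.5 in mOPC NPM (n = 2). In order of level mOPC 1FA came first, then mESC 1FA, mESC 2FA, mOPC NPM and mESC NPM, and mESC ActD4 was lowest. The libraries of mESC 1FA overlapped those of both its neighbours in that order, mOPC 1FA and mESC 2FA, which did not overlap each other. In bulk libraries such as these, fewer cells that make an RNA and less RNA per cell cannot be told apart.

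Kcnq1 was captured far less, in spite of its longer gene. The mESC 1FA libraries gave 134, 122 and 130 interactions. The mESC 2FA libraries gave 84, 144 and 136. Numbers were 24 and 23 in ActD4, 50 and 42 in mESC NPM, while mOPC NPM had 61 and 41. In mOPC 1FA it gave 2, 1 and 4. Per 1000000 listed interactions Kcnq1 was at 48.7 ± 2.43 in mESC 1FA (SD, n = 3) and 1.13 ± 0.787 in mOPC 1FA (n = 3), with no overlap between the libraries. The values of the other groups lay between 41.2 ± 9.54 in mOPC NPM (n = 2) and 92.0 ± 32.6 in mESC NPM (n = 2). The plot of levels by library shows the low level of Kcnq1 in mOPC 1FA and of Kcnq1ot1 in ActD4.

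**Figure D1:**
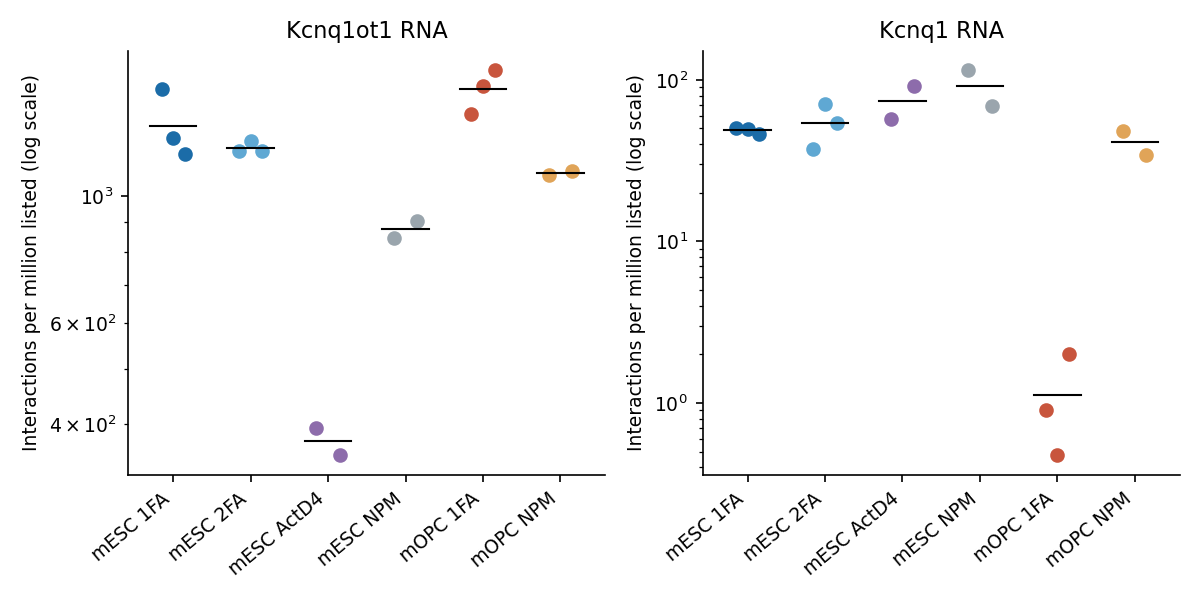
Interactions per 1000000 listed interactions (log scale) of Kcnq1ot1 RNA (left) and Kcnq1 RNA (right) in each of the 15 libraries. Points are libraries and bars are group means. Kcnq1ot1 is lowest in mESC ActD4 (374 on average) and Kcnq1 in mOPC 1FA (1.13 on average).

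The libraries held between 251802 interactions (ActD4) and 2832717 (mESC 1FA), and only pairs of an RNA and a 25-kb bin that passed the authors' test are listed. A listed Kcnq1ot1 pair held at least 7 interactions over the libraries of mOPC 1FA and at least 9 over those of mESC 1FA. A gene with no listed contact may thus have been contacted below that level, and no limit for it can be given. Every Kcnq1ot1 or Kcnq1 pair found in more than 1 replicate file had the same p-value there. The pairs were therefore called on pooled replicates, and the replicate files are not independent in which pairs they list. RNA markers followed the labels. Of 8 stem cell markers tested, 8 were lower in mOPC 1FA, and of 5 progenitor markers tested, 4 were higher. Of all transcripts tested 45.1% were lower and 33.1% higher. Mbp, a myelin protein of mature oligodendrocytes, had a mean of 173 interactions per library in mOPC 1FA against 15.7 in mESC 1FA. Fibroblast and astrocyte markers had no listed interaction in either group. Of 4 trophoblast markers 1 was listed, but it did not pass the filter on low numbers.

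The cell types were compared first, with limma on log2 CPM scaled by the trimmed mean of M values (TMM) over all transcripts. Of 10256 transcripts tested between mESC 1FA and mOPC 1FA, 78.2% were called at an adjusted p under 0.05, 33.1% as higher in mOPC and 45.1% as lower. With scaling by total the numbers went from 3399 higher and 4621 lower to 2609 and 5623. A call by itself is therefore common here, and values are also given relative to the median transcript, which stood at −0.29 on the log2 scale (−0.73 with scaling by total).

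Kcnq1 RNA was lower in mOPC 1FA by a log2 difference of −4.89 (SE 0.373, limma adjusted p = 1.76e-06), or −4.60 relative to the median. The direction and the call held under each alternative and with each library left out. All of these settings use the same listed pairs, and Kcnq1 passed the filter on low numbers through mESC 1FA alone. Only 1 bin of Kcnq1 was listed in mOPC 1FA, against 24 in each mESC 1FA library. That bin held 7 interactions over the mOPC 1FA libraries, and the fewest in a listed Kcnq1 pair of mESC 1FA was also 7. Weaker contacts of Kcnq1 in mOPC may thus be unlisted.

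Kcnq1ot1 RNA was higher in mOPC 1FA by a log2 difference of 0.65 (SE 0.149, limma adjusted p = 0.00312), or 0.94 relative to the median. With scaling by total the difference was 0.22 and no longer called (limma adjusted p = 0.131). The 2 RNAs of the locus, transcribed in opposite directions over the same DNA, thus had values on opposite sides of the median in mOPC.

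Other RNAs of the IC2 domain were tested in the same fit. Of the 15 genes listed for the domain, Kcnq1 included, 10 were listed as RNAs and 6 passed the filter on low numbers. Of these 6, 5 were lower in mOPC 1FA and 1 was higher, against 45.1% lower and 33.1% higher of all transcripts, with a median log2 difference of −1.09 against −0.29 over all transcripts. Nap1l4, which encodes a histone chaperone, fell by 1.32 on the log2 scale (SE 0.107), from 392 to 92.3 interactions per library. Cars, a cysteinyl-tRNA synthetase, had a log2 difference of −0.86 (SE 0.119), and Cd81, a tetraspanin, one of −0.54 (SE 0.139). Slc22a18 had 50.3 interactions per library in mESC 1FA and was listed at 0 in mOPC 1FA. Slc22a18 and Kcnq1 passed the filter through mESC 1FA alone, which fixed their direction. Osbpl5, which encodes an oxysterol-binding protein and lies at the telomeric end of the domain, was the higher one at 0.79 (SE 0.192, limma adjusted p = 0.00425), but with scaling by total it was at 0.36 (limma adjusted p = 0.115). The imprinted genes Cdkn1c, Phlda2 and Ascl2 did not pass the filter as RNAs.

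Among 11 distal genes on the telomeric side, 7 were tested, 2 were higher and 3 were lower in mOPC 1FA, with a median of −0.19 against −0.29 over all transcripts. These shares are near those of all transcripts, of which 33.1% were higher and 45.1% lower. With scaling by total Cttn, which encodes the actin-binding cortactin, was also called lower (−0.62, limma adjusted p = 0.00175). Shank2, a postsynaptic scaffold, was higher (log2 difference 1.67, SE 0.146), as was Ccnd1, which encodes cyclin D1 (3.10, SE 0.284). Ano1, a chloride channel, had 26.0 interactions per library in mESC 1FA and was listed at 0 in mOPC 1FA. It passed the filter through mESC 1FA alone. Of the 9 genes on the side of the neighbouring H19 and Igf2 domain, only Mrpl23, a mitochondrial ribosomal protein, was tested and it was lower (−1.39, SE 0.278).

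Among other subunits of the potassium channel family, Kcnq5 was higher in mOPC 1FA (log2 difference 6.86, SE 0.249) and Kcnq3 had a difference of 0.06 (SE 0.172). Factors known to act with Kcnq1ot1 were lower in 7 of 9 tested, where 45.1% of all transcripts were, with a median log2 difference of −1.32 against −0.29 over all. Their genes included the Polycomb genes Ezh2 (−1.87, SE 0.129) and Suz12 (−2.75, SE 0.173) and the DNA methyltransferase gene Dnmt1 (−1.40, SE 0.131). Ehmt2, a histone H3 lysine methyltransferase, had a difference of −0.20 (SE 0.241) and Hnrnpk, an RNA-binding protein gene, one of 0.27 (SE 0.141). With scaling by total Ehmt2 also passed the test, at −0.63 (limma adjusted p = 0.0476).

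Other long noncoding RNAs that act in cis or are imprinted were lower in 6 of 9 tested and higher in 3, where 45.1% of all transcripts were lower and 33.1% higher. The imprinted Meg3, Rian, Mirg and Airn were listed at 0 in mOPC 1FA, against 1274, 852, 131 and 71.0 interactions per library in mESC 1FA. Nespas, another imprinted RNA, fell by 3.04 on the log2 scale (SE 0.190). Pvt1 was higher, at 1.47 (SE 0.206). Ftx was at 0.57 (SE 0.156, limma adjusted p = 0.00826), and at 0.13 with scaling by total (limma adjusted p = 0.462). Jpx had 32.7 interactions per library in mOPC 1FA and was listed at 0 in mESC 1FA. The RNAs listed at 0 in 1 of the groups passed the filter on low numbers through the other group alone. Their direction was thus fixed by the filter, and the counts of 6 and 3 are no result about these RNAs as a set.

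The DNA contacts of Kcnq1ot1 were mostly outside its own gene. The share of its interactions with DNA outside the Kcnq1 span was 72.5, 75.1 and 72.7% in the mESC 1FA libraries and 69.5, 70.7 and 71.9% in the mOPC 1FA libraries. The means of 73.4% ± 1.44 (SD, n = 3) and 70.7% ± 1.23 (n = 3) differed by −2.75 percentage points without overlap (two-sided exact permutation p = 0.1, which is the lowest value possible with 3 libraries a side, adjusted p = 0.15 over 15 comparisons of shares). The difference was −10.3 points when only pairs with at least 20 interactions were kept. A share of 36.0% ± 0.406 in mESC 1FA and of 38.2% ± 2.28 in mOPC 1FA lay more than 1 Mb from the RNA tag. Contacts with other chromosomes made up 0.116% ± 0.114 in mESC 1FA, and their only listed bin there, on chromosome 17, is one that holds ribosomal RNA sequence.

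Contacts within 1 kb of the RNA tag, at the stretch of DNA that the RNA is copied from, were rare. The mESC 1FA libraries had shares of 0.928, 1.20 and 1.25%. Those of mOPC 1FA were 3.80, 1.34 and 1.93%. The mOPC 1FA libraries were all higher (mean difference 1.23 points, exact permutation p = 0.1, adjusted p = 0.15), and without mOPC 1FA replicate 1 the difference was 0.510 points, and with only pairs of at least 20 interactions it was 2.11. Among the 391 RNAs with at least 1000 interactions in every mESC 1FA library, 384 had a larger share within 1 kb than Kcnq1ot1 and 28 had a larger share beyond 1 Mb, where the upper quartile was 22.5%. In mOPC 1FA, 64 of 305 such RNAs had a larger share beyond 1 Mb, and the upper quartile was 36.6%.

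**Figure D2:**
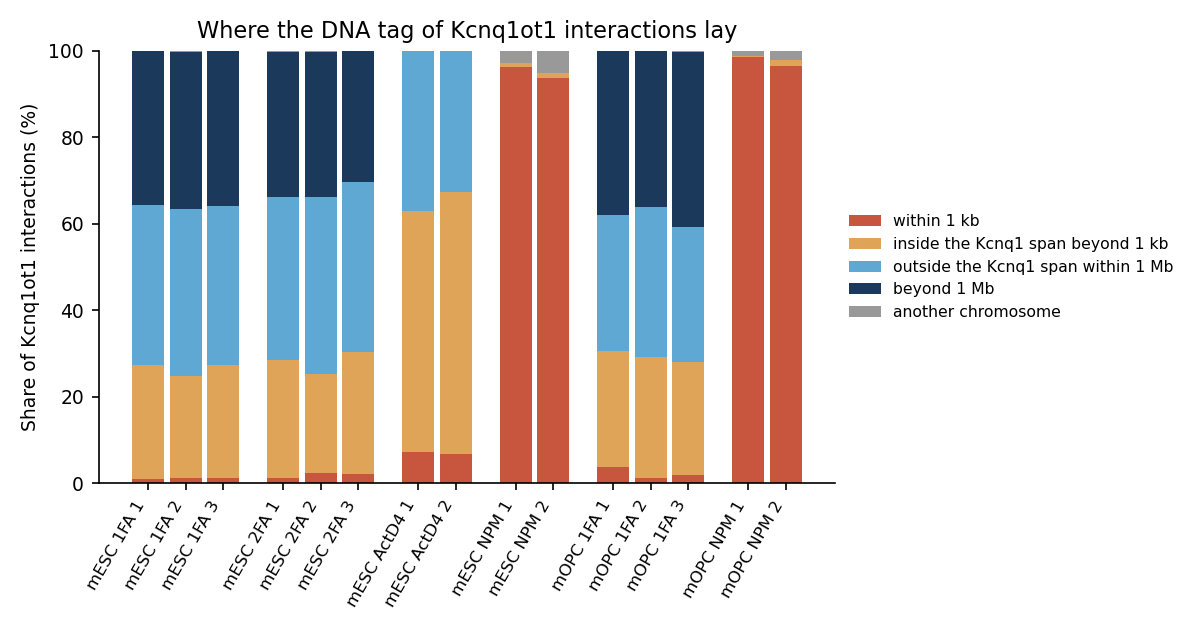
Share of Kcnq1ot1 interactions by the place of the DNA tag, in percent, for each of the 15 libraries. Most 1FA and 2FA contacts are outside the Kcnq1 span, ActD4 has none beyond 1 Mb, and over 90% of NPM contacts are within 1 kb.

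The 1FA contacts reached far to the centromeric side and to the end of the chromosome on the other. The farthest centromeric contact was at 44.5 Mb from the Kcnq1ot1 start in mESC 1FA and at 78.9 Mb in mOPC 1FA, and the farthest telomeric contact at 2.04 and 2.02 Mb. The median cis distance was 638 ± 29.8 kb in mESC 1FA (SD, n = 3) and 530 ± 45.7 kb in mOPC 1FA (n = 3). Kcnq1ot1 was listed in 327 bins in mESC 1FA and 383 in mOPC 1FA, of which 226 were shared, 69.1% of the first and 59.0% of the second.

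The balance between the sides differed. Of contacts outside the Kcnq1 span, the telomeric side, where Cdkn1c and Phlda2 lie, took 39.0, 42.4 and 38.4% in the mESC 1FA libraries and 32.9, 33.8 and 33.1% in the mOPC 1FA libraries. The difference of −6.64 points had no overlap (exact permutation p = 0.1, adjusted p = 0.15). Among stretches of 1 Mb, the one that starts at 144 Mb took 139 ± 6.34 of 1000 Kcnq1ot1 interactions in mESC 1FA and 76.4 ± 3.48 in mOPC 1FA (SD, n = 3 each). The stretch at 139 Mb took 32.0 ± 1.87 and 52.4 ± 3.63, that at 130 Mb 3.07 ± 0.333 and 23.2 ± 2.69, and that at 125 Mb 0.795 ± 0.596 and 12.1 ± 1.80. Stretches on the centromeric side were thus not uniformly fuller in mOPC. That at 142 Mb took 182 ± 12.4 in mESC 1FA and 137 ± 8.15 in mOPC 1FA. These stretches are described without a test.

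**Figure D3:**
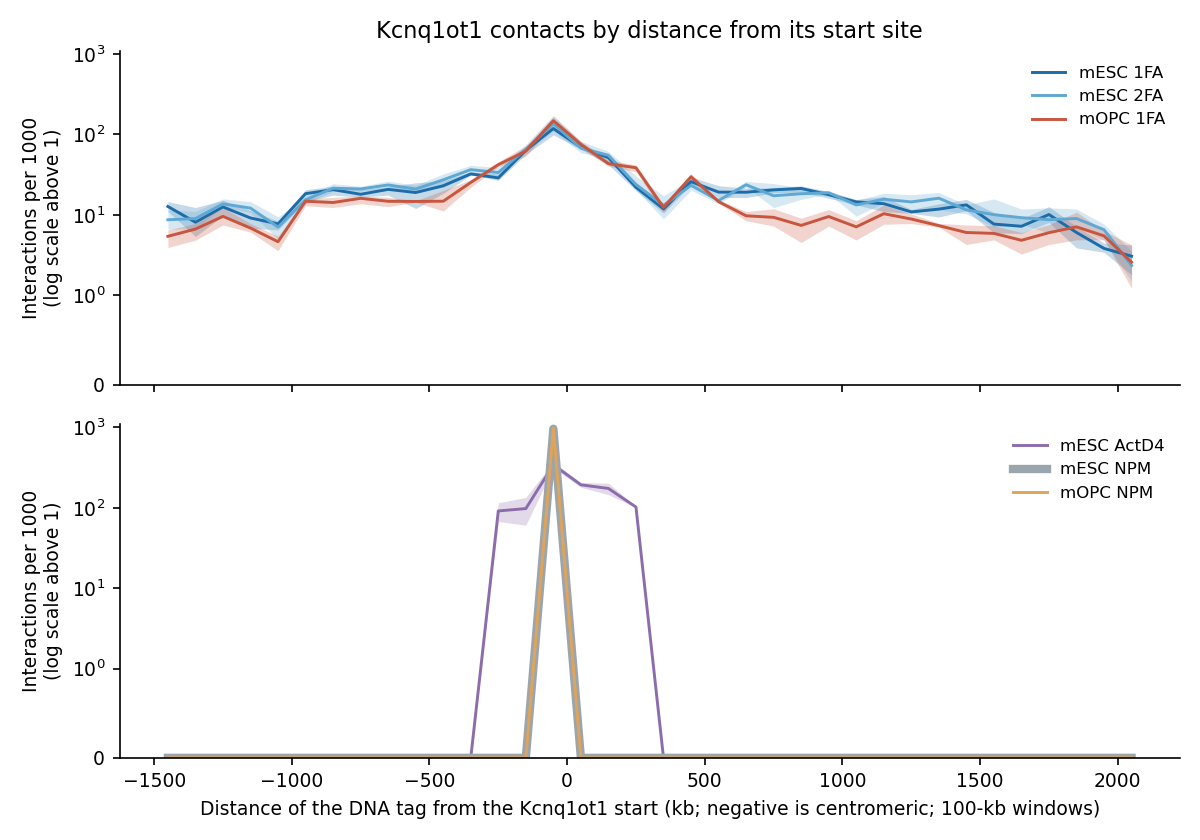
Kcnq1ot1 interactions per 1000 in windows of 100 kb by distance of the DNA tag from the Kcnq1ot1 start (negative is centromeric), on a log scale above 1. Lines are group means and bands run from the lowest to the highest library. The 1FA and 2FA curves are highest next to the start and lower to both sides. On the telomeric side they dip at 300 to 400 kb and rise again at 400 to 500 kb. ActD4 ends within 0.3 Mb, and both NPM groups, whose lines coincide, fill 1 window.

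DNA genes are those the files assign to the DNA tag, and a tag in overlapping genes counts for each, as for Kcnq1ot1 inside Kcnq1 or Tssc4 inside Trpm5. Within the domain, Kcnq1ot1 contacted 15 of 15 IC2 genes in both mESC 1FA and mOPC 1FA, in every library except for Tssc4 in mESC 1FA, which had 2 interactions in all. It contacted 9 of 9 genes of the H19 and Igf2 side in mESC 1FA and 8 of 9 in mOPC 1FA, where H19, an imprinted noncoding RNA gene 718 kb away, had none against 6 in mESC 1FA. Interactions of all RNAs listed at H19 DNA numbered 0 in mOPC 1FA and 8 in mESC 1FA. All 11 distal genes had Kcnq1ot1 contacts in both groups. Kcnq1 DNA took the most, 266 ± 14.4 of 1000 Kcnq1ot1 interactions in mESC 1FA and 293 ± 12.3 in mOPC 1FA (SD, n = 3 each), the DNA of Kcnq1ot1 itself included.

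To compare genes of unequal length, contacts were also set per 10 kb of gene and per 1000 Kcnq1ot1 interactions. In mESC 1FA, Kcnq1 stood at 8.28 ± 0.448, Cdkn1c, 162 kb from the start, at 7.03 ± 1.54, and Phlda2, 205 kb away, at 10.2 ± 6.51. Slc22a18 and Nap1l4, on the same side, stood at 3.68 ± 1.1 and 1.89 ± 0.225. Ascl2, 327 kb to the centromeric side, stood at 3.00 ± 1.46, and Igf2, a fetal growth factor gene 630 kb away, at 1.56 ± 0.363. Tnfrsf23, a decoy receptor gene 369 kb telomeric, was among the least contacted IC2 genes at 0.499 ± 0.286. The order did not follow distance alone, but Phlda2, Cdkn1c and Ascl2 are under 3 kb long and rest on 18, 20 and 8 interactions. Of the 18 at Phlda2, 11 came from replicate 1, and in mESC 2FA Phlda2 stood at 3.10 ± 1.58 with 4 interactions, below Slc22a18 at 4.29 ± 0.877, while Cdkn1c stood at 7.61 ± 0.524.

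Counts at the imprinted genes were small in each library. Cdkn1c had 7, 5 and 8 Kcnq1ot1 interactions in mESC 1FA and 2, 3 and 4 in mOPC 1FA. Phlda2 had 11, 5 and 2 against 2, 6 and 1, and Ascl2 4, 1 and 3 against 2, 2 and 1. Slc22a18, a longer gene, had 32, 39 and 26 against 38, 53 and 39. Differences at Phlda2 and Ascl2 lay within the spread of the libraries.

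Some genes took unlike shares in the cell types. Nap1l4 took 5.86, 6.82 and 7.45 of 1000 Kcnq1ot1 interactions in mESC 1FA and 17.9, 19.5 and 16.3 in mOPC 1FA, with no overlap. Tspan32, a tetraspanin gene 277 kb to the centromeric side, took 3.47 ± 0.964 and 8.50 ± 2.07, and Mrpl23 1.25 ± 0.365 and 3.21 ± 0.422. Shank2, 705 kb telomeric and 423 kb long, went the other way, with 76.5, 79.8 and 78.4 in mESC 1FA and 35.7, 40.9 and 33.2 in mOPC 1FA. Ano1, 1292 kb telomeric, took 20.5 ± 2.40 and 10.7 ± 1.34. The single gene shares were not tested.

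The 5 genes with most contacts were also taken by count, whether or not they were on a list. In mESC 1FA they were Kcnq1 (2807 interactions), Kcnq1ot1 (1108), Shank2 (822), 4933417O13Rik, an antisense RNA gene inside Kcnq1 (286), and Ano1 (215). In mOPC 1FA they were Kcnq1 (2830), Kcnq1ot1 (1264), Fgfr2 (376), Shank2 (354) and 4933417O13Rik (321). Fgfr2, a fibroblast growth factor receptor gene 10.2 Mb away, took 5.37, 7.14 and 7.75 of 1000 in mESC 1FA and 36.4, 34.8 and 45.2 in mOPC 1FA without overlap, but its annotated span of 2961 kb gives only 0.131 per 10 kb in mOPC 1FA.

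**Figure D4:**
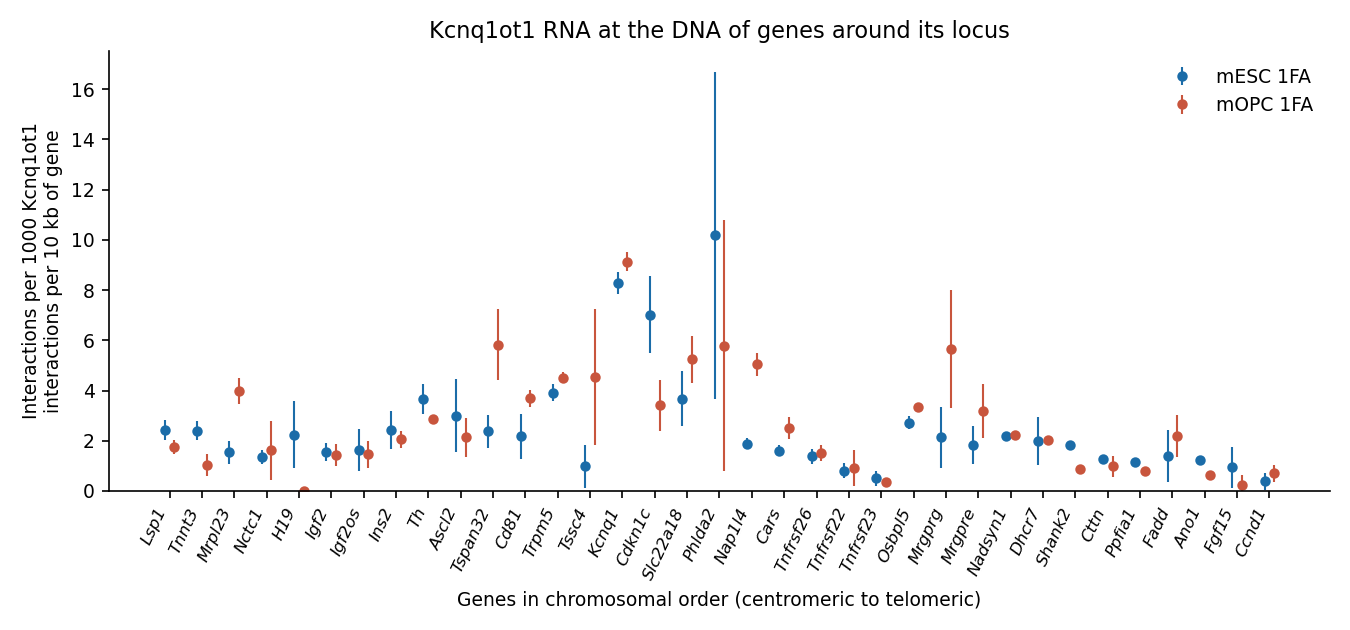
Kcnq1ot1 interactions at the DNA of genes around its locus, per 1000 Kcnq1ot1 interactions and per 10 kb of gene, in chromosomal order. Points are means of 3 libraries and bars are SD. Kcnq1 and its telomeric neighbours Cdkn1c and Phlda2 stand highest in mESC 1FA, with wide bars at the short genes.

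A second view asked what part of all RNA listed at an imprinted gene was Kcnq1ot1. At Slc22a18 the mESC 1FA libraries had shares of 28.1, 32.5 and 26.3%, and those of mOPC 1FA had 76.0, 82.8 and 79.6%, out of 333 and 163 interactions of all RNAs. At Cdkn1c it was 41.2, 29.4 and 40% against 100, 100 and 66.7%, out of 54 and 11. At Ascl2 it was 33.3, 12.5 and 30% against 100, 66.7 and 100%, out of 30 and 6. At Phlda2 it was 64.7, 27.8 and 25% against 50.0, 75 and 100%, out of 43 and 13, and the libraries overlapped.

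The share was higher in mOPC 1FA by 50.5 points at Slc22a18, 52.0 at Cdkn1c and 63.6 at Ascl2 (exact permutation p = 0.1 each, adjusted p = 0.133 over 4 genes) and by 35.8 at Phlda2 (exact permutation p = 0.2, adjusted p = 0.2). No adjusted p passed 0.05, which 3 libraries against 3 cannot reach. At Slc22a18 the number of Kcnq1ot1 interactions was 97 in mESC 1FA and 130 in mOPC 1FA, so that the higher share went with fewer interactions of other RNAs. The gene's own RNA gave 54 of the 333 interactions in mESC 1FA and none in mOPC 1FA. With 25 kb added on each side of Ascl2 its difference was 24.7 points, and without mOPC 1FA replicate 3 that of Phlda2 was 23.3.

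The higher share was not particular to these 4 genes. The mean share was higher in mOPC 1FA at 15 of 15 IC2 genes, with a median difference of 26.0 points, and at 8 of the 8 genes of the H19 and Igf2 side that had a value in both, with a median of 46.6. Nap1l4 stood at 9.28% ± 0.775 in mESC 1FA and 39.9% ± 5.18 in mOPC 1FA (SD, n = 3 each), and Th, the tyrosine hydroxylase gene, at 51.7% ± 5.01 and 89.0% ± 4.36. Of 11 distal genes 7 had the higher mean in mOPC 1FA and 4 the lower, with a median difference of 1.15 points. Shank2 was at 36.4% ± 2.00 and 33.4% ± 2.47 there. These genes were not tested.

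Kcnq1 RNA was listed at less of the domain, but it was also captured far less. It had 122 to 134 interactions per mESC 1FA library, against 3081 to 4094 for Kcnq1ot1. A listed Kcnq1 pair held at least 7 interactions over those libraries. Wider contacts of Kcnq1 below that level may thus be unlisted. In mESC 1FA, 32.3% ± 4.54 of its interactions were outside the Kcnq1 span (SD, n = 3), none was beyond 1 Mb and none was on another chromosome. Outside its own span Kcnq1 was listed at 9 IC2 genes in mESC 1FA, among them Slc22a18 (12 interactions), Trpm5, a cation channel gene (10), Nap1l4 (9) and Osbpl5 (7). In mESC 1FA it was listed at no gene of the H19 and Igf2 side and at no distal gene. With Kcnq1 itself included, the IC2 genes it was listed at numbered 10 in mESC 1FA and 8 in mESC 2FA. In mESC 2FA it was listed at no distal gene and at Th on the H19 and Igf2 side, with 7 interactions. In mESC 1FA, 63, 53 and 57 of the Kcnq1 RNA tags lay on the centromeric side of the Kcnq1ot1 span. Over it lay 36, 29 and 36, and on its telomeric side 35, 40 and 37. In the same libraries 131 of 134, 118 of 122 and 128 of 130 tags were assigned to introns and 0 to exons. In mOPC 1FA the 7 Kcnq1 interactions were all in introns, 6 of them on the telomeric side of the Kcnq1ot1 start, and all with Kcnq1 DNA.

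Next mESC 2FA was compared with mESC 1FA. Per the study's methods the chromatin was also digested with DNase I for longer at 2% formaldehyde. Fixation and digestion time therefore cannot be told apart here. Of the 9962 transcripts tested between these groups, 0.0301% were called, 3 in all, or 585 with the replicate number as a block. Kcnq1ot1 was at a log2 difference of −0.19 (SE 0.112, limma adjusted p = 0.54) and Kcnq1 at 0.04 (SE 0.202, limma adjusted p = 0.96). In mESC 2FA 71.9% ± 2.56 of Kcnq1ot1 interactions lay outside the Kcnq1 span (SD, n = 3), 1.56 points below mESC 1FA with overlap (exact permutation p = 0.4, adjusted p = 0.429). With 1 library left out the difference ranged from −2.93 to −0.405 points. Within replicate numbers the share outside the span was lower in 3 of 3 pairs, by 0.460 to 3.11 points. The share on the telomeric side was higher in 3 of 3, by 2.39 to 3.46 points (exact permutation adjusted p = 0.417 within pairs for both). The share within 1 kb was higher in 3 of 3 pairs as well, by 0.223 to 1.13 points (exact permutation adjusted p = 0.417). With 3 pairs of libraries no p under 0.25 is possible. With only pairs of an RNA and a bin that held at least 20 interactions, the telomeric difference turned to −0.107 points. Kcnq1ot1 bins numbered 256 in mESC 2FA, of which 212 were also listed in mESC 1FA, 82.8% of the 2FA bins and 64.8% of the 1FA bins. Shank2 took 78.4, 76.5 and 61.8 of 1000 interactions, which overlaps mESC 1FA.

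Actinomycin D was used to ask which contacts outlast transcription. Of 9896 transcripts 64.6% were called, 19.5% as higher and 45.1% as lower in ActD4. Kcnq1ot1 was lower by a log2 difference of −2.03 (SE 0.127, limma adjusted p = 1.45e-15), or −1.67 relative to the median, and both libraries were below every mESC 1FA library. This value counts only interactions in listed pairs, and the ActD4 libraries were smaller than those of mESC 1FA. The part of library size in it was not tested. Kcnq1 was at 0.38 (SE 0.227, limma adjusted p = 0.142). It passed the test with scaling by total (0.60, limma adjusted p = 0.0216) and was at 0.75 without ActD4 replicate 1. When each pair was counted once it was at 0.66. That count was 24 in every mESC 1FA library and 6 in both ActD4 libraries, as pairs were called on pooled replicates. It therefore has no spread between libraries to test. Kcnq1 turned to −2.75 when counted without contacts inside the Kcnq1 span (limma adjusted p = 0.000304). No ActD4 contact of Kcnq1 was listed outside that span.

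Among the RNAs of the IC2 genes 7 were tested in ActD4, 4 were lower, 1 was higher and 2 were not called, with a median of −0.57 against −0.36 over all transcripts. Osbpl5 was listed at 0 in ActD4 against 51.0 interactions per library in mESC 1FA, and passed the filter through mESC 1FA alone. Nap1l4 had a difference of −0.98 (SE 0.169). Tssc4, a small gene that lies inside Trpm5 on the other strand, was the higher one at 2.80 (SE 0.497), but it had only 7.33 interactions per library in mESC 1FA and 7 in ActD4. Of 7 distal genes 5 were lower, where 45.1% of all transcripts were, with a median of −1.58 against −0.36. Shank2 was among them at −2.00 (SE 0.276). With scaling by total Cttn was no longer called (−0.37, limma adjusted p = 0.077).

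The Kcnq1ot1 contacts that remained listed in ActD4 were close to the gene. The median cis distance was 61.6 and 95.3 kb, and no contact was beyond 0.277 Mb on either side. Over all RNAs of the ActD4 libraries 1.75 to 1.77% of interactions lay beyond 1 Mb, against 10.5 to 11.5% in mESC 1FA, and 13.6 to 14.7% lay within 1 kb, against 3.80 to 5.52%. The share outside the Kcnq1 span was 37 and 32.6%, below the 73.4% ± 1.44 of mESC 1FA (difference −38.7 points, exact permutation p = 0.1, the smallest for 3 libraries against 2, adjusted p = 0.15). The share within 1 kb was 7.27 and 6.74%, 5.88 points above mESC 1FA (exact permutation p = 0.1, adjusted p = 0.15), or 12.7 with only pairs of at least 20 interactions. Of contacts outside the span, 65.6 and 79.3% lay on the telomeric side, 32.5 points above mESC 1FA (exact permutation p = 0.1, adjusted p = 0.15). The Kcnq1ot1 start (143296549) lies nearer to the telomeric end of the Kcnq1 span (143427042) than to its centromeric end (143106362). ActD4 contacts reached 0.244 Mb to the centromeric side and 0.276 and 0.277 Mb to the telomeric, against 44.5 and 2.04 Mb in mESC 1FA. The part of this shorter reach in the telomeric share was not tested. For Kcnq1 the share within 1 kb was 37.5 and 34.8% in ActD4 against 13.4, 20.5 and 15.4% in mESC 1FA, a difference of 19.7 points without overlap (exact permutation p = 0.1, adjusted p = 0.15). All 15 bins listed in ActD4 were also listed in mESC 1FA.

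Of the IC2 genes 8 had Kcnq1ot1 contacts in ActD4. Apart from Kcnq1 these were Trpm5 (13 interactions), Cd81 (8), Nap1l4 (7), Cdkn1c (5), Cars (5), Tssc4 (3) and Phlda2 (1). Only 6 of the 8 were listed in both libraries. All 5 at Cdkn1c came from replicate 1 and the 1 at Phlda2 from replicate 2. Trpm5 had 11 and 2. No gene of the H19 and Igf2 side and no distal gene had one. The ActD4 libraries held 418781 and 251802 interactions, against at least 2441619 in mESC 1FA, and each listed Kcnq1ot1 pair held at least 8. The part of library size in the loss of distant bins was not tested.

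The RNA tags in ActD4 shifted towards the Kcnq1ot1 start. The first 5 kb held 24.2 and 40.4% of the tags in ActD4, against 11.1% ± 1.20 in mESC 1FA (SD, n = 3), 10.7% ± 0.959 in mESC 2FA and 11.8% ± 0.741 in mOPC 1FA. The stretch from 20 to 50 kb held 41.8 and 27% in ActD4 and 47.0% ± 1.81 in mESC 1FA. Both ActD4 libraries were outside the range of mESC 1FA in each stretch, but they rest on 165 and 89 tags and the difference was not tested. In mOPC 1FA 3.43% ± 0.796 of tags lay between 65 and 85 kb, against 1.53% ± 0.342 in mESC 1FA.

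**Figure D5:**
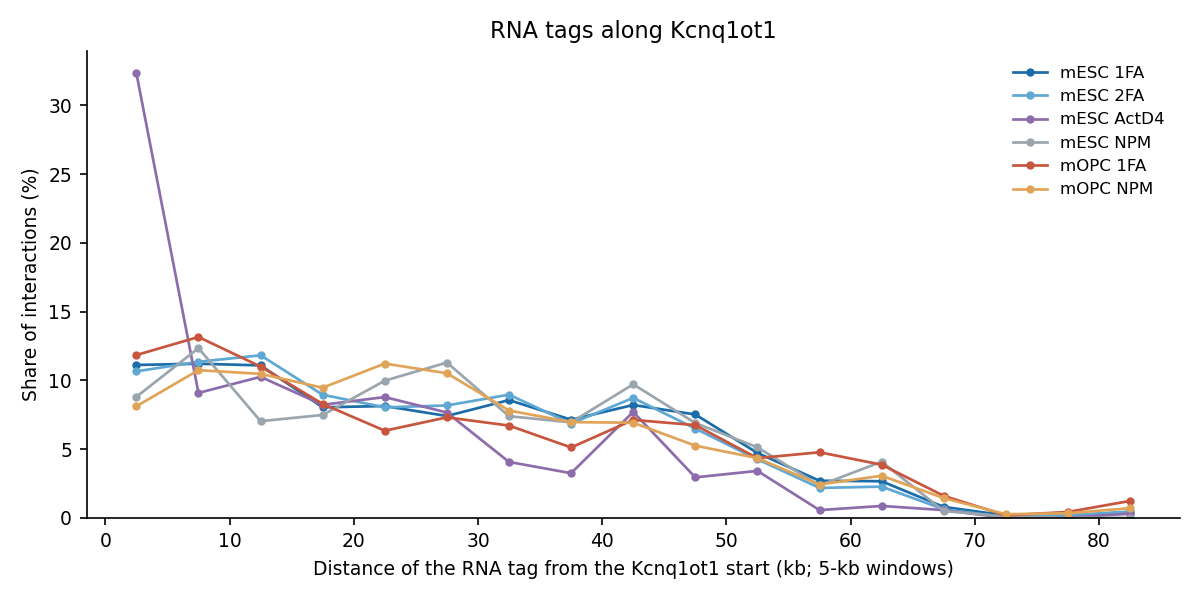
Share of Kcnq1ot1 interactions, in percent, by distance of the RNA tag from the Kcnq1ot1 start in windows of 5 kb, as means of the libraries of each group. The first window holds 32.3% in ActD4 and between 8.11 and 11.8% in the other groups, and the windows from 65 to 85 kb hold 3.43% or less in every group.

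Removal of protein was compared in both cell types. Of 10096 transcripts 51.9% were called between mESC 1FA and mESC NPM, and of 10419 transcripts 57.1% between mOPC 1FA and mOPC NPM. The directions of these calls depend on the scaling. The mESC NPM fit called 1893 as higher and 3342 as lower, against 4531 and 1328 with scaling by total. The mOPC NPM fit called 3055 and 2899, against 6292 and 776. The median transcript moved from −0.15 to 0.55 and from 0.13 to 0.96.

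Kcnq1ot1 was lower in NPM in both cell types, by log2 differences of −1.29 in mESC (SE 0.197, limma adjusted p = 0.000212) and −1.31 in mOPC (SE 0.146, limma adjusted p = 5.85e-05). With scaling by total these were −0.59 and −0.48 and still called, and they were −3.72 and −4.01 when each pair was counted once. Relative to the median the differences with TMM were −1.14 and −1.44. These values sum over all listed contacts. Of 1000 Kcnq1ot1 interactions, 961 ± 16.6 were with Kcnq1 DNA in mESC NPM (SD, n = 2), against 266 ± 14.4 in mESC 1FA (n = 3). In mOPC NPM and mOPC 1FA these were 982 ± 6.42 and 293 ± 12.3. The level of contacts inside the Kcnq1 span alone was not tested.

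In mESC 1FA, 32.3% ± 4.54 of Kcnq1 interactions lay outside the Kcnq1 span, against 73.4% ± 1.44 for Kcnq1ot1 (SD, n = 3 each). Kcnq1 was not called lower in NPM. In mESC NPM it was at 0.18 (SE 0.214, limma adjusted p = 0.493), while in mOPC NPM it was higher by 4.24 (SE 0.461, limma adjusted p = 4.91e-05), from 2, 1 and 4 interactions to 61 and 41. The mESC value rests on the setting: it was 0.88 with scaling by total (limma adjusted p = 0.00472) and −0.12 without mESC NPM replicate 1. The difference between the cell types in the change from 1FA to NPM was tested as an interaction, which called 31.7% of 12213 transcripts. For Kcnq1 it was 3.91 on the log2 scale (SE 0.537, limma adjusted p = 0.000185) and for Kcnq1ot1 −0.17 (SE 0.226, limma adjusted p = 0.616).

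The NPM contacts of both RNAs were almost all within 1 kb, as were most NPM contacts of all RNAs, of which 84.4 to 86.2% in mESC NPM and 86.5 to 87.9% in mOPC NPM lay that near. The share of Kcnq1ot1 interactions within 1 kb was 96.2 and 93.7% in mESC NPM, and the mOPC NPM libraries had 98.5 and 96.5%. Over both cell types it was 94.5 points above 1FA (exact permutation p = 0.01 within cell type, the smallest the design allows, adjusted p = 0.075). The median distance between the tags was 0.221 and 0.237 kb in mESC NPM. For Kcnq1 the share within 1 kb was 95.6% ± 0.539 in mESC NPM against 95.5% ± 4.01 in mOPC NPM (SD, n = 2 each), against 16.4% ± 3.65 in mESC 1FA (n = 3).

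Of the IC2 genes only Kcnq1 had a listed Kcnq1ot1 contact in NPM. In cis no contact was more than 0.0836 Mb from the start, and none was upstream of it. The Kcnq1ot1 interactions outside the Kcnq1 span, 3.90% ± 1.66 in mESC NPM against 1.75% ± 0.642 in mOPC NPM, were all with other chromosomes. In mESC NPM they were the same bin of chromosome 17 with 38 interactions, and in mOPC NPM that bin with 19, 2 neighbouring bins of chromosome 11 with 9 and 10, and the mitochondrial genome with 9. Along the RNA, NPM tags were spread over the span, and the first 5 kb held 8.80% ± 0.658 of them in mESC and 8.11% ± 1.47 in mOPC.

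The NPM groups of the cell types were compared with each other as well. Of 11043 transcripts 57.4% were called, 3803 as higher in mOPC NPM and 2531 as lower, against 2900 and 3680 with scaling by total. Kcnq1ot1 was at 0.76 (SE 0.218, limma adjusted p = 0.00298) but at 0.33 with scaling by total (limma adjusted p = 0.115). It lost the call without mOPC NPM replicate 1 (0.80, limma adjusted p = 0.0781) and without mOPC NPM replicate 2 (0.71, limma adjusted p = 0.125). Kcnq1 was at −0.70 (SE 0.305, limma adjusted p = 0.0479) and at −1.13 with scaling by total (limma adjusted p = 0.00427). The call was lost with the replicate number as a block (limma adjusted p = 0.0526), with limma voom (limma adjusted p = 0.0818) and without mESC NPM replicate 1 (−0.36, limma adjusted p = 0.379) or mOPC NPM replicate 2 (−0.50, limma adjusted p = 0.282).

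Kcnq1ot1 was set beside other well captured noncoding RNAs that act in cis, Meg3 from the imprinted Dlk1 domain and Pvt1 from the Myc locus. In the 3 mESC 1FA libraries Meg3 had 80.8% ± 1.86 of its interactions outside its own gene, against 73.4% ± 1.44 for Kcnq1ot1 outside Kcnq1 (exact permutation p = 0.25 within library, the smallest for 3 libraries). The own gene spans are unequal, and beyond 100 kb from the RNA tag Kcnq1ot1 was 26.0 points above Meg3. Over the 6 1FA libraries Pvt1 had 76.6% ± 1.34 and Kcnq1ot1 72.1% ± 1.92, higher in 1 of 6 libraries (exact permutation p = 0.0625 within library, adjusted p = 0.125). Beyond 100 kb the difference from Pvt1 was −1.29 points. Neither difference passed the test.

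The RNAs whose level was most like that of Kcnq1ot1 over the 15 libraries, by Pearson's r of log2 CPM among 3426 transcripts, were Peli2 (r = 0.984), Scfd2 (0.981), Pgbd5 (0.979), St7l (0.978) and Arfip1 (0.975). For Kcnq1 they were Celsr1 (0.973), Slit3 (0.969), Crtac1 (0.969), Asic2 (0.968) and Prdm16 (0.967). The libraries share their groups and depth, so these values describe a common pattern over 6 conditions and no more.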

How the data were processed

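RADICL-seq libraries were taken from the deposited files, 1 per library, with 1 line per interaction and DNA gene. Per the study's methods and the labels, the authors mapped tags to mm10 with BWA 0.7.15-r1140 and base-called with CASAVA 1.8, kept unique alignments, assigned RNA tags to genes by strand and DNA tags without it, and tested each pair of RNA and 25-kb bin with a one-sided binomial test. The p-values of these pairs were made by the authors, who kept pairs under an adjusted p of 0.05, so weaker contacts are not listed. Exact copies of a line were counted once. Gene symbols and positions came from a later annotation release, which matched 17501 of 17542 Ensembl identifiers.

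Interactions were counted per RNA and library, kept with at least 10 in as many libraries as the smaller group held and at least 15 in all, scaled by TMM, and tested on log2 CPM (prior count 0.5) with limma 3.58.1 in R 4.3.3 and Benjamini-Hochberg adjustment. A transcript listed at 0 in 1 group could pass this filter only through the other group, which fixed its direction. The fit was tested on simulated data. Shares were compared with exact permutation tests. Named genes were the members, the fixed gene lists and the 5 DNA genes with most contacts. One listed gene is not reported here. Members and lists were chosen with earlier results of these data known. Same-numbered libraries deviated together for mESC 1FA and 2FA (correlations 0.394, 0.363 and 0.570 over 3510 transcripts), so numbers were taken as pairs there only. P-values measure the spread between libraries made from pooled pair calls.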

Additional observations from a re-analysis of the deposited data

Results flagged for a closer look

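The change of Kcnq1 RNA from 1FA to NPM differed between the cell types, by the interaction term of a limma fit over the 10 libraries of mESC 1FA, mESC NPM, mOPC 1FA and mOPC NPM. The interaction was 3.91 on the log2 scale (SE 0.537, limma adjusted p = 0.000185), from 0.18 in mESC to 4.10 in mOPC. It rests on 2, 1 and 4 interactions in mOPC 1FA. The cause was not tested.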

How the results depend on the processing

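Of the values of Kcnq1ot1 and Kcnq1 capture under alternatives that kept all libraries, 66 kept their direction and their side of the threshold, 5 passed a threshold that the value as reported did not, 5 lost it and 3 turned direction. Scaling by total gave Kcnq1ot1 0.22 in mOPC 1FA and 0.33 between the NPM groups, both no longer called, and Kcnq1 0.60 in ActD4 and 0.88 in mESC NPM, both called, unlike with TMM. Without the filter on low numbers 2092 transcripts were called for 1FA against 2FA, 9300 for mOPC NPM and 10250 between the NPM groups, where more transcripts were tested, and Kcnq1 lost its call between the NPM groups (−0.70), as it did with limma voom (−0.66).

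With the replicate block, 585 transcripts were called for 1FA against 2FA and Kcnq1 lost its call between the NPM groups (−0.70, limma adjusted p = 0.0526). The block changed no other call of either RNA.

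When each pair was counted once, 4326 transcripts were called for 1FA against 2FA and 616 between the NPM groups. Within a group the replicate files listed nearly the same pairs of both RNAs, as pairs were called on pooled replicates. Calls under this setting therefore do not measure the spread between libraries. Kcnq1ot1 then stood at −0.13 for 2FA, and Kcnq1 at 0.66 for ActD4 and 1.08 for mESC NPM. Kcnq1ot1 moved to −3.72 in mESC NPM and −4.01 in mOPC NPM. Without contacts inside the own gene the calls numbered 79 for 2FA, 3380 for mESC NPM and 336 between the NPM groups, and Kcnq1 was at −0.061 for 2FA, −2.75 for ActD4 and −0.74 for mESC NPM. Some fits gave no value for Kcnq1 under these settings because it failed the filter. The share on the telomeric side differed by −0.107 points for 2FA when only pairs with at least 20 interactions were kept, and Kcnq1ot1 stood 26.0 points above Meg3 beyond 100 kb, where its difference from Pvt1 was −1.29. The share outside the Kcnq1 span differed by −10.3 points for mOPC 1FA with pairs of at least 20, and that at Ascl2 by 24.7 with 25 kb on each side. Except where a reason is given, the cause was not tested.

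With each library left out, the number called for 2FA ranged from 0 to 3, with 0 without any 1 of the mESC 2FA libraries. Kcnq1 ranged from −0.18 to 0.27 for 2FA, negative without mESC 2FA replicate 2, from 0.044 to 0.75 for ActD4, from −0.12 to 0.49 for mESC NPM and from −1.02 to −0.36 between the NPM groups. Kcnq1ot1 ranged from 0.69 to 0.86 between the NPM groups. The difference in the share of Kcnq1 within 1 kb for 2FA ranged from −0.918 to 2.61 points, negative without mESC 1FA replicate 1 or mESC 2FA replicate 3. Where 1 library was left in a group, its spread was assumed to equal that of the other group. Values of Kcnq1 in mOPC 1FA rest on 7 interactions in all.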
